A study of Arabidopsis thaliana with 8 samples.

Results

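The genes described here are 44 Arabidopsis thaliana heat shock factors, chaperones and cochaperones, chosen by locus identifier out of 33201 rows of the authors' deposited table. They are 13 heat shock factors, the coactivator MBF1C, HSP101, 4 cytosolic HSP90 genes, 5 cytosolic HSP70 genes, 3 BIP genes, 13 small heat shock proteins and 4 cochaperones. RNA sequencing was done on 4 libraries from the pan mutant and 4 libraries from wild type, all of the Col-0 accession. PAN is a bZIP transcription factor of the TGA class, and the labels name no allele of its mutant. In both genotypes, roots of 5-day-old seedlings were turned into protoplasts, and cells bearing the WOX5::GFP reporter, a marker of the quiescent center of the root stem cell niche, were sorted. The question put to these genes is how their levels in the sorted cells differ without PAN.

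Heat shock factors are transcription factors that bind DNA when a cell meets heat or other protein-damaging stress, and they switch on molecular chaperones. Chaperones hold, fold or pull apart other proteins. HSP70 and HSP90 use ATP to fold clients, HSP101 dissolves aggregates, small heat shock proteins hold unfolded proteins, and BIP is the HSP70 of the endoplasmic reticulum (ER). Some members of each family are made in every growing cell, and others are made mainly under stress.

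The table holds 1 pooled FPKM (fragments scaled to transcript length and to the number of mapped fragments) per genotype, so no value has a replicate error of its own, and the authors' q-value alone speaks to the spread between libraries. A gene is said to rise or fall where that q is under 0.05. The number of fragments per library is unknown. The lowest values of FPKM times transcript length lay near 0.00349 in pan and 0.0352 in wild type (0.1 percentile), so the lowest measurable level was higher in wild type. The labels were checked on PAN, at 0.265 FPKM in pan and 19.996 FPKM in wild type, per the authors' deposited table (q = 0.0386). WOX5, whose promoter drives the sort reporter, stood at 8.27 FPKM in pan and 205 FPKM in wild type, per the authors' deposited table (q = 0.00116). That q belongs to the smallest p the table gives, 5e-05, which 3 members share (HSP70-2, ATHSP70 and HOP3).

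Markers of several cell types moved between the genotypes as well. All 6 root cap markers fell, with a summed level of 219 FPKM in pan and 646 FPKM in wild type, while 4 of 9 epidermis and root hair markers rose and none fell, with 1078 FPKM in pan and 381 FPKM in wild type. Of 8 stele markers 3 fell and 1 rose, 6 had a negative log2 change and their median was -2.03. Their sums, 77.5 FPKM in pan and 75.3 FPKM in wild type, include WOL, which rose to 70.8 FPKM in pan, against 28.1 FPKM in wild type, per the authors' deposited table. Of 7 endodermis and cortex markers 2 fell and 1 rose, with 253 FPKM in pan and 207 FPKM in wild type. No marker on these lists was listed at 0. In pooled cells, fewer cells of a type and less RNA per cell cannot be told apart, and the part of the marker changes in the results below was not tested. Both genotypes went through protoplasting and sorting, and roots that did not were not analysed here. The part of this handling in the levels of the genes below was not tested.

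Most heat shock and chaperone genes lay lower in the mutant, while 5 of the 13 heat shock factors and all 3 BIP genes lay higher. Of 43 tested members 11 fell and 1 rose in the authors' deposited table, which is 25.6% and 2.33%. Over all 19789 tested genes the table called 9.83% lower and 8.01% higher, or 17.8% in either direction. The genes that fell were HSFA1E, HSFA2, HSP101, HSP90.1, HSP90.2, HSP70-2, ATHSP70 (AT3G12580), the small heat shock protein genes AT1G07400 and AT5G51440, FES1A and HOP3. HSFA6B rose. The log2 change of pan over wild type was negative for 35 of the 43 (81.4%), against 55.2% of tested genes with a finite change, and its median was -1.23, against -0.17 over those genes. Centred on tested genes of like level, 4 uncalled members (HSFA4A, HSP70B, BIP2 and HSP18.2) changed sign, no called member did, and the median of the members was -0.92. HSP21, the small heat shock protein of plastids, was the member without a test, at 0.0659 FPKM in pan and 0.165 FPKM in wild type, per the authors' deposited table. No member was listed at 0.

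The share of calls in the table depends on level, so the members were set beside genes of like abundance. Between 5 and 20 FPKM (mean of both genotypes) 5 of 15 members fell, against 14.4% of all tested genes, and none rose, against 3.9%. Between 20 and 100 FPKM 5 of 12 fell, against 12.7%, and 1 rose, against 12.7% as well. At 100 FPKM or more 1 of 6 fell, against 7.34%. Under 5 FPKM none of 10 tested members was called in the authors' comparison, where 3.78% of all genes were called lower and 2.6% higher. At the high end the direction of the rest of the table was the opposite one, since 28.1% of all genes at 100 FPKM or more were called higher and none of these 6 members was. At q under 0.01, 5 members fell and none rose, against 4.39% of all tested genes called lower and 4.25% called higher. These shares describe the authors' calls, and no test of the list was made.

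**Figure D1:**
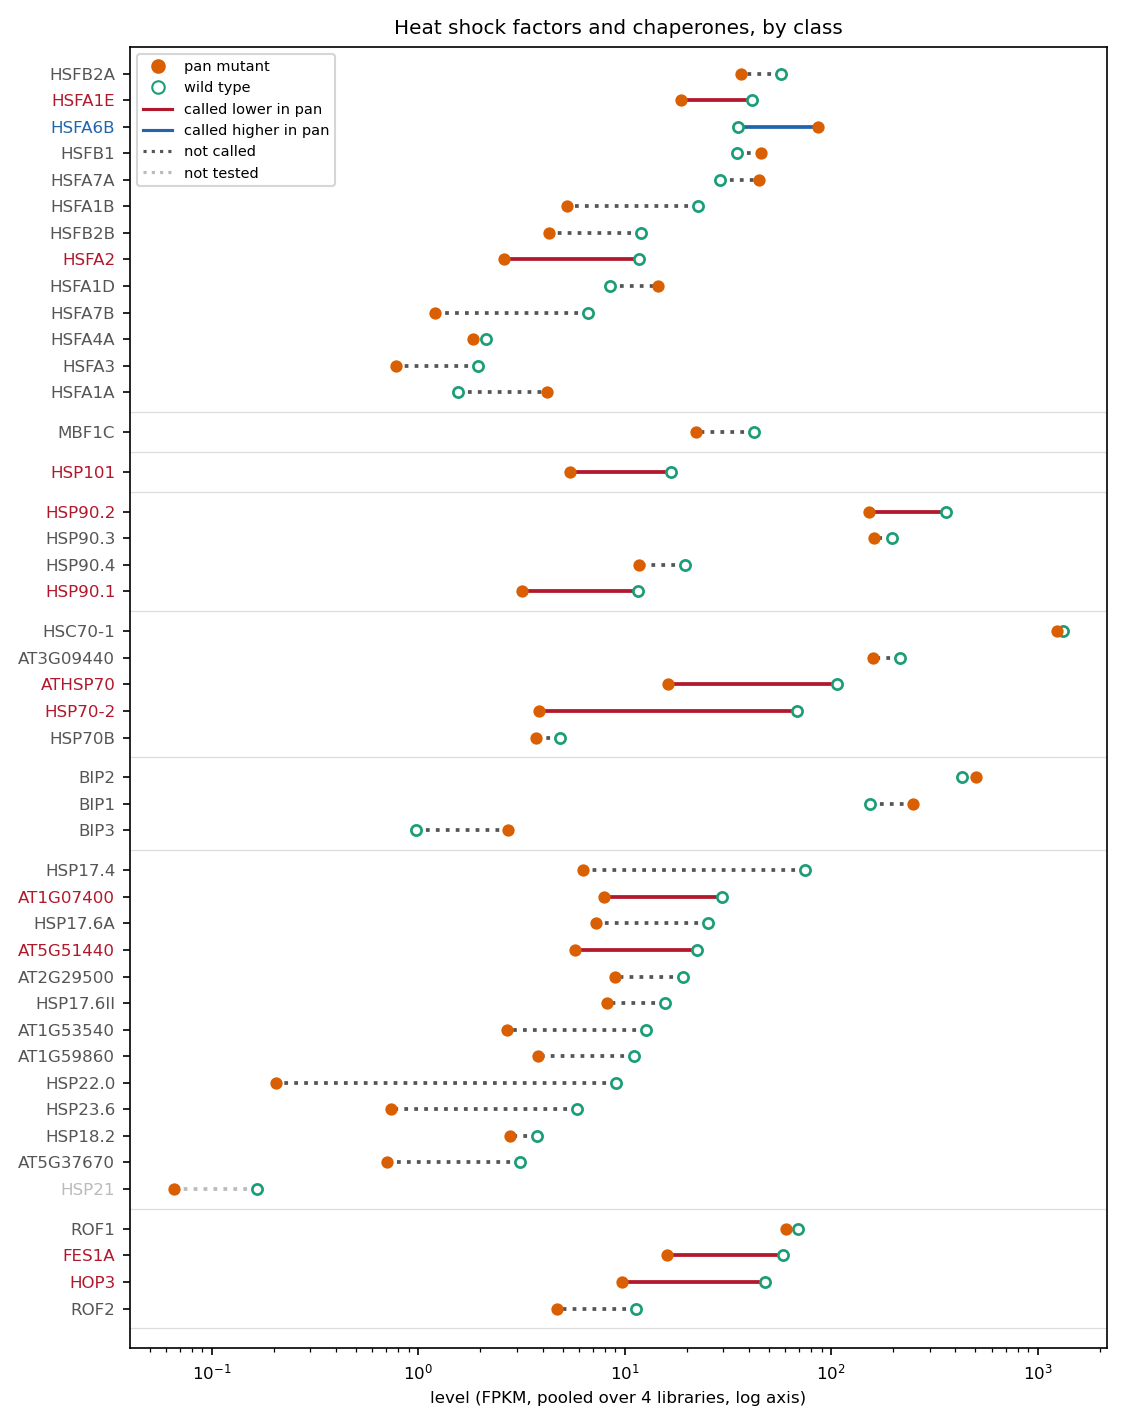
Level of each member in FPKM (log axis), pooled over the libraries of a genotype, grouped by class from heat shock factors at the top to cochaperones at the bottom. Filled points are pan and open points wild type; solid lines mark members called lower (red) or higher (blue), dotted lines those not called or not tested. HSP70-2 spans 3.86 FPKM in pan to 68.3 FPKM in wild type, while the points of HSC70-1 lie almost on each other.

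**Figure D2:**
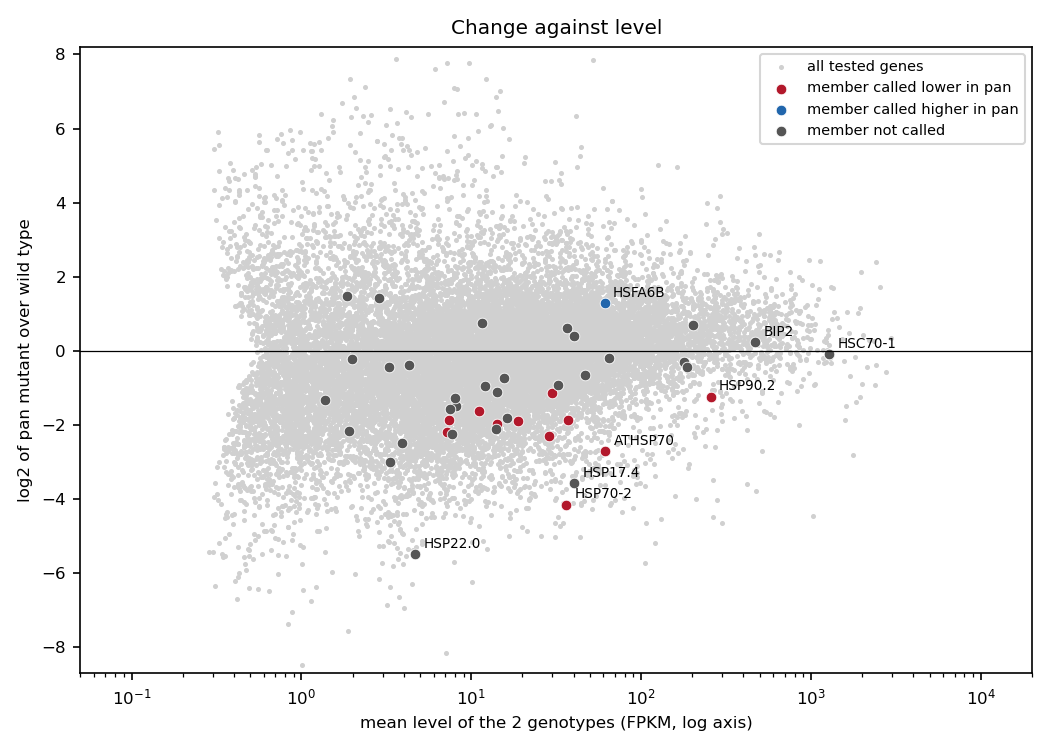
Log2 change of pan over wild type against the mean level of both genotypes in FPKM (log axis) for tested genes with a finite change (grey) and the members (coloured by call). HSP70-2 (-4.15) and ATHSP70 (-2.71) lie near the lower edge of the cloud at their level, and HSC70-1 and BIP2 lie near 0.

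The heat shock element is the DNA site of these factors, built from inverted repeats of GAA. Sites of this kind ahead of the start codon were read from RefSeq (TAIR10.1), and those of called and uncalled members are printed side by side. Capitals mark the motif, which was searched as GAA, TTC and GAA in a row with any 2 bases between neighbours (TTC, GAA and TTC when read on the other strand), and lower case marks its flanks, each 5′ to 3′ on the strand of the gene.
HSP70-2 (chr5:552686-552714, minus strand): taattacaGAACATTCTGGAAactcaagt
ATHSP70 (chr3:3993846-3993874, minus strand): ttactcgtGAACGTTCTCGAAagctcttt
HSC70-1 (chr5:556554-556582, minus strand): caaccatcGAACATTCTCGAAacatttta
AT3G09440 (chr3:2905894-2905922, minus strand): atcgaaccGAACATTCTCGAAccttttta
HSP90.1 (chr5:21352254-21352282, plus strand): aacgaaaaGAACTTTCTGGAAttcgtttg
HSFA2 (chr2:11135528-11135556, plus strand): ttagtaacGAAGTTTCTGGAAcattgtct
HSFA7A (chr3:19264941-19264969, plus strand): ttacgaagTTCCAGAAGTTTCgactattc
HSFA7A (chr3:19264991-19265019, plus strand): aaaaccgtTTCCAGAAGTTTCtaatttct
HOP3 (chr4:7341319-7341347, minus strand): aaaaattcGAAATTTCGAGAActctcttg
The sites of HSFA2, HSFA7A and HSP90.1 lie before the annotated gene start, and those of HSP70-2, ATHSP70, HSC70-1, AT3G09440 and HOP3 lie in an annotated exon before the start codon. AT3G09440 has a second match in such an exon, which is not printed.

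An exact match on either strand in the 400 bases before the start codon was found for 15 of 44 members (34.1%), against 0.955% of 27443 protein-coding genes. Of these 15 members, 5 fell and none rose (33.3% lower, against 9.83% of all tested genes). A negative log2 change was found for 14 of them (93.3%, against 55.2%), and their median was -2.18, against -0.17. Of the other 29 members (28 tested), 6 fell and 1 rose (21.4% lower), 21 of the tested had a negative change (75%), and their median was -1.02. These 29 lack the exact match and not every such site. A shorter form, GAA and TTC in either order with any 2 bases between, was found for 30 of 44 members (68.2%). It was found before 28.6% of all genes. Among the 29, HSP17.6A and FES1A are examples that carry it. Members with the same motif letters are given next, and the differences between them were not tested. HSP70-2 and HSFB2B carry GAACATTCTGGAA, and the authors' deposited table gave them log2 changes of -4.15 (called) and -1.47 (not called). HSC70-1 and AT3G09440 carry GAACATTCTCGAA, with log2 changes of -0.10 and -0.44 in the authors' deposited table, neither called. HSFA7A, AT3G09440 and HSP17.4 each have 2 matches, with log2 changes of 0.63, -0.44 and -3.57 in the authors' deposited table, none called. That of HSFA7A is the one positive value among the 15. The values of HSFB2B and HSP17.4 are uncertain, since each shares a table locus with another gene. The TGACG core bound by TGA factors, searched on both strands, was found for 14 members (31.8%), against 28.3% of all genes, which is near the background. Of members with that core 4 of 14 fell (28.6%), and of those without it 7 of 29 tested fell (24.1%) and 1 rose (3.45%). Over all tested genes 9.83% were called lower and 8.01% higher.

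**Figure D3:**
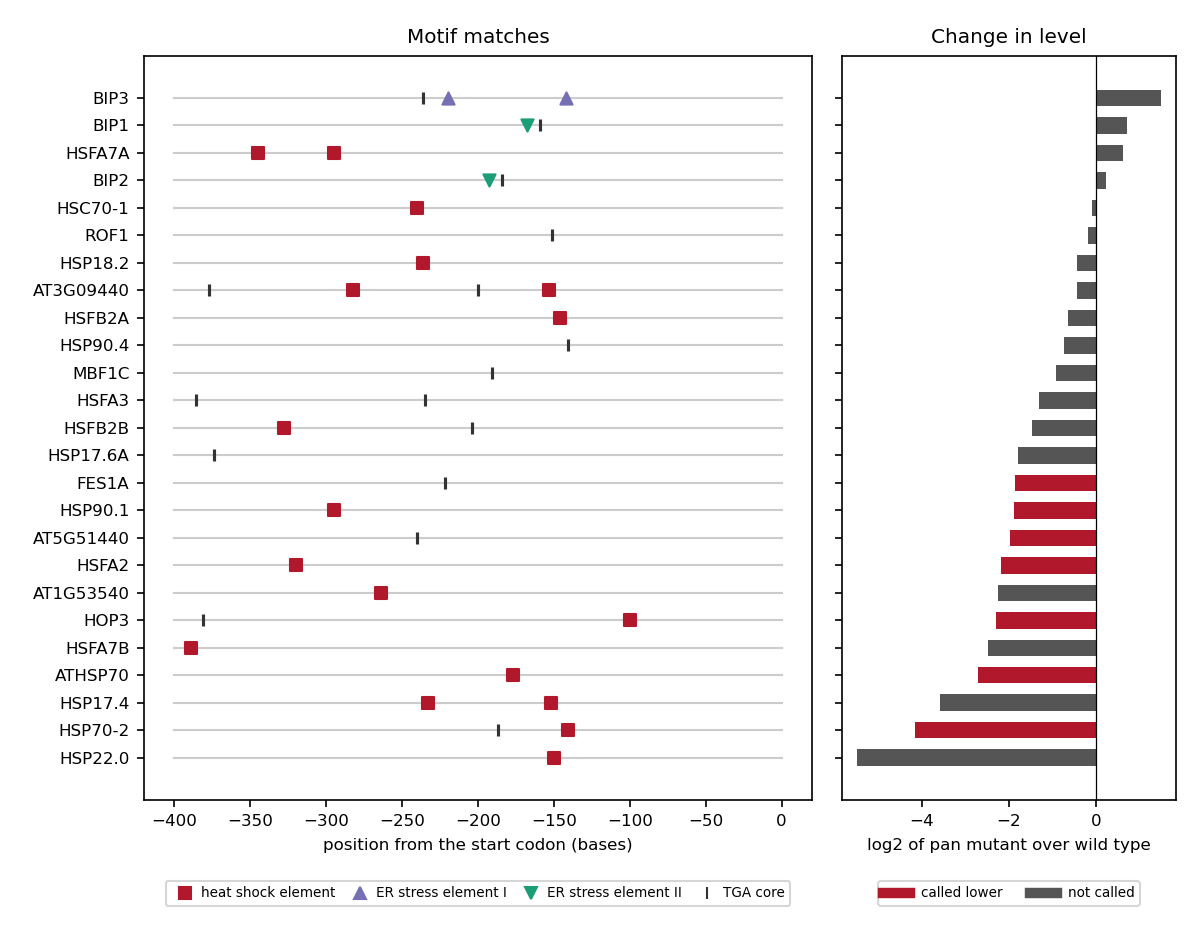
Motif matches in the 400 bases before the start codon (left, position in bases from the start codon) and log2 change of pan over wild type (right). Shown are the 25 members with a match to any plotted motif, in order of change. The shorter form of the heat shock element is not plotted. Squares are heat shock elements, triangles ER stress elements and ticks TGACG cores; red bars mark members called lower. Squares occur from HSP22.0 (-5.47) at the bottom to HSFA7A (0.63) near the top. Triangles mark the 3 BIP genes alone, with log2 changes of 0.23 to 1.49, none called. BIP2 is at -0.22 once centred on genes of like level.

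The 4 HSFA1 factors are the constitutive master activators of the heat response. HSFA1E fell to 18.7 FPKM in pan, against 41.3 FPKM in wild type (log2 -1.14, q = 0.0399, authors' deposited table). The other three were not called. HSFA1D stood at 14.5 FPKM in pan and 8.51 FPKM in wild type, per the authors' deposited table. HSFA1A stood at 4.19 FPKM in pan and 1.56 FPKM in wild type there, and the authors' deposited table gave HSFA1B 5.24 FPKM in pan and 22.7 FPKM in wild type (q = 0.169). The table groups overlapping genes into loci. HSFA1B shares its locus with AT5G16830, which had 103 FPKM in pan and 42.2 FPKM in wild type, per the authors' deposited table, so the HSFA1B value is uncertain. Of the 4, HSFA1E was the most abundant in both genotypes.

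Of the 4 factors that act downstream, made mainly after stress, 1 fell (25%, against 9.83% of all tested genes called lower). HSFA2, which amplifies and prolongs the heat response, fell to 2.596 FPKM in pan, against 11.8 FPKM in wild type (4.53-fold lower, q = 0.0392, authors' deposited table). HSFA7B had 1.20 FPKM in pan and 6.65 FPKM in wild type, per the authors' deposited table, and was not called (q = 0.0816). Its close relative HSFA7A had 44.6 FPKM in pan and 28.9 FPKM in wild type, per the authors' deposited table (q = 0.396). HSFA3, which the factor DREB2A activates, had 0.783 FPKM in pan and 1.95 FPKM in wild type (q = 0.386, authors' deposited table). DREB2A itself rose to 998 FPKM in pan, against 490 FPKM in wild type (q = 0.0129, authors' deposited table), so the activator and HSFA3 had changes of opposite sign, of which only that of DREB2A was called.

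HSFA6B, a factor tied to abscisic acid and drought responses, was the member that rose. It reached 86.7 FPKM in pan, against 35.4 FPKM in wild type (2.45-fold, log2 1.29, q = 0.0143, authors' deposited table). It was the most abundant of the 13 factors in pan and the third in wild type. HSFA4A, known from oxidative stress, stood at 1.84 FPKM in pan and 2.14 FPKM in wild type, per the authors' deposited table. None of the class B factors, which lack the activation domain of class A and act as repressors, was called. HSFB1 had 45.9 FPKM in pan and 34.9 FPKM in wild type, and HSFB2A had 36.5 FPKM in pan and 56.98 FPKM in wild type, as the authors' deposited table gives them. HSFB2B had 4.30 FPKM in pan and 11.95 FPKM in wild type, per the authors' deposited table (q = 0.158). It shares its table locus with AT4G11670, so its value is uncertain. In RefSeq, 18.6% of its 50-base transcript stretches occur in another gene on either strand. That gene is chiefly AT4G05910, which overlaps HSFB2B in RefSeq and is not in its table locus.

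Summed over the 13 factors, the level was nearly the same, 267 FPKM in pan and 265 FPKM in wild type, while the make-up differed. HSFA6B held 32.5% of the sum in pan and 13.4% in wild type. HSFA1E held 7.01% in pan and 15.6% in wild type, and HSFA2 0.972% in pan and 4.44% in wild type. Without HSFA6B the log2 ratio of the sums was -0.35 in place of 0.01.

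Of the other 8 heat shock factor genes of the family, 6 were tested, 2 fell (33.3%, against 9.83% of all tested genes) and none rose (against 8.01%). HSFB4, also known as SCHIZORIZA and needed for the fate of root tissues around the stem cells, fell to 2.80 FPKM in pan, against 62.1 FPKM in wild type (log2 -4.47, q = 0.00116, authors' deposited table). HSFC1 fell to 16.95 FPKM in pan, against 40.3 FPKM in wild type (q = 0.0365, authors' deposited table). The fall of HSFB4 exceeded that of any of the 13 factors above in size. MBF1C, a coactivator required for basal heat tolerance, had 22.2 FPKM in pan and 42.2 FPKM in wild type, per the authors' deposited table, and was not called (q = 0.748). MBF1C shares a table locus with AT3G24503, and its value is uncertain for that reason.

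HSP101, the cytosolic disaggregase of acquired heat tolerance, fell to 5.44 FPKM in pan, against 16.7 FPKM in wild type (3.07-fold lower, q = 0.0173, authors' deposited table). Its table locus also holds AT1G74300, at 3.39 FPKM in pan and 6.90 FPKM in wild type, per the authors' deposited table, so the HSP101 value is uncertain as well. Of the 50-base stretches of HSP101, 1.79% occur in AT1G74300 or in other genes. The organelle relatives of HSP101 fell too. CLPB3 of plastids had 8.62 FPKM in pan and 34.8 FPKM in wild type, and CLPB4 of mitochondria 2.45 FPKM in pan and 16.3 FPKM in wild type (q = 0.00116 each, authors' deposited table).

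Among the cytosolic HSP90 genes, which fold kinases, receptors and other signalling proteins, all 4 had a negative change. Of these 4 genes, 2 fell (50%, against 9.83% of all tested genes called lower). HSP90.1, the heat-inducible gene, fell to 3.18 FPKM in pan, against 11.7 FPKM in wild type (q = 0.0260, authors' deposited table). HSP90.2 fell to 153 FPKM in pan, against 360 FPKM in wild type (2.35-fold lower, q = 0.00340, authors' deposited table). Its neighbours in the same gene cluster on chromosome 5 were not called: HSP90.3 stood at 162 FPKM in pan and 198 FPKM in wild type, and HSP90.4 at 11.8 FPKM in pan and 19.6 FPKM in wild type, as the authors' deposited table gives them. HSP90.2 held 46.5% of the HSP90 sum in pan and 61.1% in wild type. These 3 genes are near-identical in part, with 18.8% of the 50-base stretches of HSP90.2, 23.9% of HSP90.3 and 18.7% of HSP90.4 found in another gene, so how reads were divided among them is uncertain. HSP90.1 shares none. The class summed to 330 FPKM in pan and 589 FPKM in wild type.

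The cytosolic HSP70 genes spanned log2 changes between -4.15 and -0.10. Of the 5 genes, 2 fell (40%, against 9.83% of all tested genes called lower). HSC70-1, the constitutive cognate, was the most abundant member in both genotypes, with 1236 FPKM in pan and 1321 FPKM in wild type (q = 0.890, authors' deposited table). It ranked 49th in pan and 29th in wild type among the 19789 tested genes. HSP70-2, which lies next to it on chromosome 5, fell to 3.86 FPKM in pan, against 68.3 FPKM in wild type (17.7-fold lower, log2 -4.15, q = 0.00116, authors' deposited table). That is a drop of level rank to 13138 in pan, against 2309 in wild type. ATHSP70, a strongly heat-inducible gene, fell to 16.3 FPKM in pan, against 107 FPKM in wild type (6.56-fold lower, q = 0.00116, authors' deposited table). HSP70-2 and HSC70-1 share no 50-base stretch with each other or with any other annotated gene, and neither does ATHSP70.

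The remaining HSP70 genes were not called. AT3G09440, annotated as HSP70 family, had 159 FPKM in pan and 215 FPKM in wild type (q = 0.339, authors' deposited table). In RefSeq, 12.9% of its 50-base stretches occur in another gene on either strand, chiefly AT3G09430, which overlaps it there. HSP70B, heat-inducible in leaves, had 3.74 FPKM in pan and 4.86 FPKM in wild type (q = 0.723, authors' deposited table). HSC70-1 made up 87.1% of the class in pan and 77.0% in wild type, and the class summed to 1418 FPKM in pan and 1717 FPKM in wild type. HSP70-2, ATHSP70 and HSP70B together came to 23.9 FPKM in pan and 180 FPKM in wild type, a trio grouped after its values were seen.

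**Figure D4:**
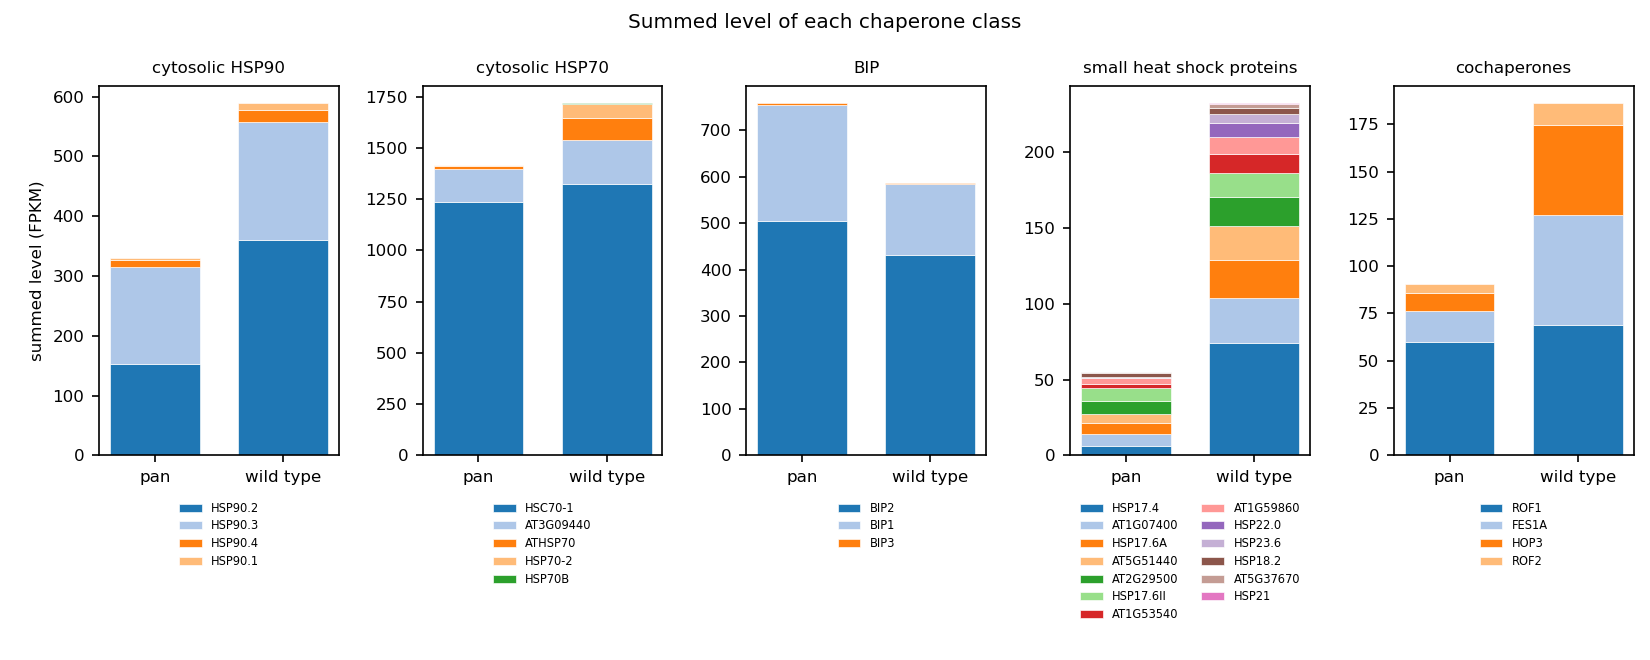
Summed FPKM of each chaperone class in pan (left bar) and wild type (right bar), each bar divided by gene; every panel has its own axis from 0. The small heat shock proteins sum to 55.3 FPKM in pan and 232 FPKM in wild type, whereas BIP sums to 757 FPKM in pan and 585 FPKM in wild type.

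Small heat shock proteins form oligomers that bind unfolding proteins without ATP and hand them to HSP70 and HSP101. All 12 tested genes had a negative log2 change, between -5.47 and -0.43 (HSP18.2, at 0.02 once centred on genes of like level), and their median was -1.93. Of these 12 genes 2 were called, a share (16.7%) that stands beside 9.83% called lower over all tested genes. AT1G07400 fell to 7.93 FPKM in pan, against 29.5 FPKM in wild type (3.72-fold lower, q = 0.0405, authors' deposited table). AT5G51440 fell to 5.72 FPKM in pan, against 22.4 FPKM in wild type (3.92-fold lower, q = 0.0425, authors' deposited table). Both q-values lie close to the threshold.

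Several genes of the class with large ratios were not called. HSP22.0, which resides in the ER, stood at 0.205 FPKM in pan and 9.12 FPKM in wild type (log2 -5.47, q = 0.0736, authors' deposited table). With a pseudocount of 1 FPKM its log2 change was -3.07 and with 5 FPKM -1.44, so its size depends on the pseudocount. HSP17.4, a cytosolic class I protein, stood at 6.28 FPKM in pan and 74.4 FPKM in wild type (q = 0.129, authors' deposited table) and was the most abundant of the class in wild type. Its value is uncertain, since its table locus also holds AT3G46220, at 19.5 FPKM in pan and 66.0 FPKM in wild type, per the authors' deposited table. In RefSeq, 61.5% of the 50-base stretches of HSP17.4 occur in another gene on either strand. That gene is chiefly AT3G07365, which overlaps HSP17.4 in RefSeq and is not in its table locus. HSP23.6 of mitochondria stood at 0.737 FPKM in pan and 5.89 FPKM in wild type (q = 0.0802, authors' deposited table).

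The other tested members of the class lay within a narrower range. HSP17.6A had 7.25 FPKM in pan and 25.2 FPKM in wild type, and its neighbour HSP17.6II, the other class II gene, had 8.18 FPKM in pan and 15.8 FPKM in wild type, as the authors' deposited table gives them. AT2G29500 was the most abundant of the class in pan, at 8.96 FPKM in pan and 19.25 FPKM in wild type (q = 0.282, authors' deposited table). HSP18.2 had the smallest change, 2.79 FPKM in pan and 3.76 FPKM in wild type (q = 0.803, authors' deposited table). The authors' deposited table gave AT1G53540 2.69 FPKM in pan and 12.7 FPKM in wild type, AT1G59860 3.79 FPKM in pan and 11.1 FPKM in wild type, and AT5G37670 0.706 FPKM in pan and 3.12 FPKM in wild type, none of them called. Over the 13 genes the sum was 55.3 FPKM in pan and 232 FPKM in wild type, 4.20-fold lower in pan, the largest ratio among the class sums. HSP17.4, whose value is uncertain, held 11.4% of this sum in pan and 32% in wild type. Without HSP17.4 the log2 ratio of the sums was -1.69 in place of -2.07. Each of the 13 genes was lower in pan than in wild type, and for 10 of the 12 tested the authors' test did not separate the genotypes.

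Cochaperones steer HSP70 and HSP90. HOP3, which bridges HSP70 and HSP90, fell to 9.75 FPKM in pan, against 47.7 FPKM in wild type (4.89-fold lower, q = 0.00116, authors' deposited table). FES1A, which keeps cytosolic HSP70 stable, fell to 16.0 FPKM in pan, against 58.3 FPKM in wild type (3.64-fold lower, q = 0.00273, authors' deposited table). In RefSeq, HOP3 overlaps AT4G12390 and FES1A overlaps AT3G02195, and 4.39% of the 50-base stretches of HOP3 and none of FES1A occur in another gene on either strand. The FKBP-type rotamases ROF1 and ROF2 bind HSP90 and act on HSFA2. The heat-induced ROF2 had 4.70 FPKM in pan and 11.3 FPKM in wild type (q = 0.106), and the constitutive ROF1 had 60.1 FPKM in pan and 68.8 FPKM in wild type (q = 0.720), both in the authors' deposited table. ROF1 held 66.4% of the cochaperone sum in pan and 37.0% in wild type, a sum that was 2.05-fold lower in pan. Without ROF1 the log2 ratio of the sums was -1.95 in place of -1.04.

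Among 28 tested genes of a wider list of chaperones and cochaperones, 5 fell and none rose (17.9%, against 9.83% of all tested genes called lower). They were CLPB3 and CLPB4, given above, HOP1, SGT1A and AT1G54050. HOP1 fell to 40.6 FPKM in pan, against 83.3 FPKM in wild type (q = 0.0266, authors' deposited table), while its relative HOP2 was not called, at 12.8 FPKM in pan and 21.5 FPKM in wild type, per the authors' deposited table. SGT1A, an HSP90 partner in immune receptor folding, fell to 2.26 FPKM in pan, against 18.3 FPKM in wild type (q = 0.00273, authors' deposited table). Its close relative SGT1B had 74.1 FPKM in pan and 66.5 FPKM in wild type, per the authors' deposited table. AT1G54050, annotated as HSP20-like, fell to 4.32 FPKM in pan, against 50.97 FPKM in wild type (q = 0.00273, authors' deposited table). The mitochondrial chaperonins HSP60 and CPN10 and the DNAJ proteins J2 and J3 were not called, with log2 changes between -0.17 and 0.09 in the authors' deposited table. The other HSP60 genes of the list, HSP60-2 and HSP60-3A, had log2 changes of 0.57 and -0.22 there and were not called.

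Outputs of the heat response that are not chaperones of these classes were mixed. Of 8 tested, 2 fell (25%, against 9.83% of all tested genes) and DREB2A rose (12.5%, against 8.01%). HSA32, which prolongs acquired heat tolerance, fell to 1.58 FPKM in pan, against 14.4 FPKM in wild type (log2 -3.19, q = 0.0110, authors' deposited table). BAG6, a cochaperone of stress and cell death, fell to 4.58 FPKM in pan, against 13.5 FPKM in wild type (q = 0.0221, authors' deposited table). GOLS1, a galactinol synthase, had 1.60 FPKM in pan and 2.11 FPKM in wild type, per the authors' deposited table (q = 0.954). APX2, a classical target of HSFA2, was not tested, at 0.171 FPKM in pan and 0.478 FPKM in wild type, per the authors' deposited table.

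BIP proteins pull proteins into the ER and fold them there, and their genes are known to answer to misfolding in the ER. All 3 BIP genes had a positive log2 change, that of BIP2 becoming -0.22 once centred on genes of like level, and none was called. BIP2 had 504 FPKM in pan and 431 FPKM in wild type (q = 0.646, authors' deposited table). BIP1 had 250 FPKM in pan and 154 FPKM in wild type (q = 0.102, authors' deposited table). BIP3, made mainly under ER stress, had 2.73 FPKM in pan and 0.974 FPKM in wild type (q = 0.484, authors' deposited table). BIP1 and BIP2 share 22.9% and 24.8% of their 50-base stretches with another gene, chiefly each other, so the split between them is uncertain, and their class sum was 757 FPKM in pan and 585 FPKM in wild type. Tested genes of the level of BIP1 and BIP2 had a median log2 change of 0.45, which lies between the values of BIP2 (0.23) and BIP1 (0.70).

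The regions before these genes hold motifs of the ER stress response, which are printed as a description of sequence. No BIP gene was called, and the part of these motifs in the levels was not tested. Capitals mark ER stress element II in BIP1 and BIP2, which was searched on both strands as ATTGG and CCACG with any 1 base between them. In BIP3 they mark ER stress element I, searched on both strands as CCAAT and CACG with any 10 bases between them and lying here on the other strand. Of its 2 matches the one nearer the start codon is shown (RefSeq, TAIR10.1).
BIP1 (chr5:10543424-10543450, minus strand): gtaagataATTGGTCCACGtcatctct
BIP2 (chr5:16810655-16810681, minus strand): gtaagataATTGGTCCACGtcatctcc
BIP3 (chr1:2931923-2931951, minus strand): gcttaCGTGTCAAGAAGTGATTGGagagg
Element II occurs before 0.0692% of all 27443 genes, 19 in number, and element I before 0.926%. Neither was found before any other member, and no BIP gene has an exact heat shock element in the window. Element II lies in an annotated exon before the start codon in BIP1 and BIP2, and the BIP3 matches lie before the annotated gene start. The TGACG core matched in BIP1 and BIP2 overlaps the end of element II.

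Of 27 tested other genes of ER protein folding, 2 fell and 1 rose, 11.1% called in all, against 17.8% of all tested genes. Their median log2 change was 0.19. All tested genes between 20 and 100 FPKM had a median of 0.09, with 25.5% called. At 100 FPKM or more the median was 0.43, with 35.4% called. This list was not centred on level. IRE1A, a sensor of ER stress, fell to 19.8 FPKM in pan, against 67.2 FPKM in wild type (q = 0.00116, authors' deposited table). CRT3, a calreticulin of receptor quality control, fell to 18.3 FPKM in pan, against 44.8 FPKM in wild type (q = 0.0283, authors' deposited table). CRT1A, a calreticulin that binds calcium and glycoproteins, rose to 835 FPKM in pan, against 402 FPKM in wild type (q = 0.00765, authors' deposited table). The transcription factor BZIP60 had 60.9 FPKM in pan and 34.7 FPKM in wild type (q = 0.177), and the ER-resident HSP90.7 had 354 FPKM in pan and 438 FPKM in wild type (q = 0.518), both in the authors' deposited table.

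Some neighbouring members share no 50-base stretch. HSP70-2 and HSC70-1 stand side by side on chromosome 5 (550035 to 552647 and 553745 to 556442, TAIR10), and the authors' deposited table called HSP70-2 and not HSC70-1. HSP17.6II and HSP17.6A are also adjacent (chromosome 5, 3882237 to 3882938 and 3884107 to 3884737), with log2 changes of -0.95 and -1.80 in the authors' deposited table and neither called. The authors' test was made gene by gene, and the difference between such neighbours was not tested.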

How the data were processed

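RNA from sorted protoplasts was isolated with a column kit and amplified before library construction, per the labels' protocols. Reads were processed with TopHat2 2.0.13, Cufflinks 2.1.1 and Cuffdiff on TAIR10, per the submitters' processing notes. The sources used here do not give whether counting used strand.

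The authors' deposited table gives FPKM per gene, pooled over the 4 libraries of each genotype, the log2 ratio of these, a test statistic (a score), a p-value and a q-value. These are the authors' values; the ratio is pan over wild type per the file headers. The q-values equal a Benjamini-Hochberg adjustment over the 19789 tested genes within 5.25e-07. With no value per library, no test, SD or interval of its own was computed, depth is unknown, and the planned linear model on values per library could not be fitted. The libraries are labelled as biological replicates.

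Computed here were counts of calls (q under 0.05), medians, sums, centring and ranks (Python 3.11.15, pandas 2.3.3, numpy 2.4.6), with centring in 20 bins of level tested on simulated data. All 44 members matched a RefSeq (TAIR10.1) locus tag; RefSeq gave the 400 bases before each start codon and the share of 50-base transcript stretches that occur in another gene. The members, the 9 gene lists and the tests were chosen with earlier results of these data known. The rule for named genes was every called member, the 2 highest of each role and any member at 0 or without a test, and from each other list up to 4 called genes with the largest change. The other members, HOP1 and the uncalled genes of other lists were added after their values were seen, and the marker genes are given as counts and sums.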

Additional observations from a re-analysis of the deposited data

How the results depend on the processing

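At q under 0.01, 5 members fell and 0 rose in the authors' deposited table, in place of 11 and 1, while 4.39% of all tested genes were called lower; fewer calls follow from the stricter threshold itself. With a mean of at least 5 FPKM or a change past 2-fold the counts stayed at 11 lower and 1 higher, and without the 11 members that share a locus or over 10% of their stretches (chosen after seeing the data) they were 9 and 1. The median log2 change lay between -0.73 (called members left out) and -1.29 (no sharing members). Without its most abundant member, the log2 ratio of summed levels was -0.35 for the heat shock factors (0.01 with it), -1.11 for cytosolic HSP70 (-0.28 with it) and -1.95 for the cochaperones (-1.04 with it). That ratio was -0.37 for cytosolic HSP90 (-0.84 with it), -1.69 for small heat shock proteins (-2.07 with it) and 0.71 for BIP (0.37 with it). Of 43 members, a pseudocount of 5 FPKM moved 16 by over 1.5-fold, a pseudocount of 1 FPKM moved 5 and centring by level moved 4. These moves follow from the calculation. A pseudocount is added to both levels and shrinks ratios most at low levels, and centring subtracts the median change of genes of like level. No paired analysis was possible because the table holds 1 pooled value per genotype, and leaving out each replicate was not run for the same reason.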
